A study of Mus musculus with 5 samples.

Results

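The canonical histone genes are the features whose symbols start with Hist1h, Hist2h, Hist3h or Hist4h, without the testis genes Hist1h1t, Hist1h2ba and Hist1h2aa. They number 66 of the 27998 features counted, with 65 symbols, because Hist2h2bb occurs as 2 features. By symbol, 5 encode linker histone H1, 18 encode H2A, 18 encode H2B, 12 encode H3 and 13 encode H4. They were counted in mouse whole testis by single-cell RNA sequencing after synchronization of spermatogenesis, at 0 h (labelled Control), 144 h (EP1), 350.4 h (EP2), 556.8 h (EP3) and 763.2 h (EP4). Each time had 1 library, and the study follows the maturation of Sertoli cells, the somatic nurse cells of the seminiferous tubule, each time stages VIII to IX of the tubule cycle came back. The sources used here give no strain, age, number of animals or synchronizing agent. Tubules were freed with collagenase and DNase, left to settle so that the supernatant could be taken off, and then digested with trypsin, which limits how far the suspension stands for the interstitial cells.

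Core histones H2A, H2B, H3 and H4 wrap DNA into nucleosomes, and H1 binds the DNA between them. Most canonical histone genes lie in clusters and are transcribed during DNA replication, when new chromatin has to be packed. Their mRNAs typically end in a stem-loop bound by Slbp in place of a poly(A) tail, whereas replacement histones are made from polyadenylated mRNAs in any phase of the cell cycle. In spermatids most histones are later exchanged for transition proteins and protamines.

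In the Ensembl annotation of GRCm38, 52 members lie on chromosome 13, 11 on chromosome 3, 2 on chromosome 11 and 1 on chromosome 6. Of the 66, 64 are annotated as protein-coding, 1 as a lincRNA (1 of the Hist2h2bb features) and 1 as a processed pseudogene. An exact histone stem-loop after the stop codon was found in annotated transcripts of 41 members, 26 of them with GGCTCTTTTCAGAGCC. A poly(A) signal AATAAA within the last 50 bases of a transcript was found in 14 members, of which 9 also held a stem-loop. This leaves 32 members with a stem-loop and no terminal AATAAA, and 20 with neither. Some of these lack annotation, since 13 members have no annotated base after a stop codon. Among the 13 are the lincRNA and the pseudogene, for which no stop codon is annotated. The 3′ sites below are shown because the histone sums are compared by the kind of 3′ end. Each window is 30 bases on the gene's strand, 5′ to 3′, with the stem-loop or AATAAA in capitals.
Hist1h4d stem-loop (GRCm38 chr13:23581943-23581972, + strand): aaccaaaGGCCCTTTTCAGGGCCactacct
Hist1h2ap stem-loop (GRCm38 chr13:21833026-21833055, - strand): aaaaaaaaaaaGGCTCTTTTCAGAGCCatc
Hist1h1e stem-loop (GRCm38 chr13:23621775-23621804, - strand): acccaaaGGCTCTTTTCAGAGCCacccaca
Hist1h3a stem-loop (GRCm38 chr13:23761883-23761912, - strand): aaccaaaGGCTCTTTTCAGAGCCacacacg
Hist1h2bp stem-loop (GRCm38 chr13:21787916-21787945, + strand): acacaaaGGCTCTTTTCAGAGCCacccaca
Hist1h2bp AATAAA (GRCm38 chr13:21789179-21789208, + strand): atacattataaaAATAAAggtttcaatcta
Hist1h4a AATAAA (GRCm38 chr13:23760703-23760732, - strand): agaaattgagtaAATAAAccttgagtgcct
Hist1h1c stem-loop (GRCm38 chr13:23739505-23739534, + strand): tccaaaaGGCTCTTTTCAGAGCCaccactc
Hist1h1c AATAAA (GRCm38 chr13:23740330-23740359, + strand): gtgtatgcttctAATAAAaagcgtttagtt
Hist3h2a stem-loop (GRCm38 chr11:58955165-58955194, + strand): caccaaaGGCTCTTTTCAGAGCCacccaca
Hist3h2a AATAAA (GRCm38 chr11:58956785-58956814, + strand): aggtatatgcccAATAAAataagagtacgt
Hist2h3c1 stem-loop (GRCm38 chr3:96247320-96247349, + strand): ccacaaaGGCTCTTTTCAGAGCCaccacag
Hist2h3c1 AATAAA (GRCm38 chr3:96248475-96248504, + strand): ttttttaatcccAATAAAaatttaacacac
Hist1h2bc AATAAA, not near its end (GRCm38 chr13:23692450-23692479, + strand): tgatgtatatatAATAAAtgtcatgtaaag
The window of Hist1h2ap shows only A before its stem-loop. The longest A run in its annotated transcripts is 12 bases, against 6 in those of Hist1h4d and of Hist1h1e. Long runs also occur in Hist1h2ac (15 bases), Hist1h2ao (12) and Hist1h2be (11), each with far lower counts than Hist1h2ap. The sources used here do not name the capture chemistry, so how well mRNAs without a poly(A) tail were captured is not known, and the part of such A runs in the counts was not tested.

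RefSeq promoter windows (250 bases before to 50 after the start, GRCm38.p6) were matched for 58 members. TATAAA on either strand occurred in 33 of them (56.9%), against 14.2% of 27025 promoters of the same length. CCAAT on either strand occurred in 49 (84.5%), against 37.9% of all promoters, and these included every matched H1, H2A, H2B and H3 promoter but 3 of 12 H4 promoters. The octamer ATTTGCAT occurred in 11 (19%), against 1.75% of all promoters, in 6 of 16 H2A and 5 of 15 H2B promoters and in no H1, H3 or H4 promoter. The motifs can share end letters, and each was counted for itself. The promoters of Hist1h1b and Hist1h2bp are shown because these genes led in Sertoli-like cells at 0 h and in round-spermatid-like cells. Capitals mark TATAAA and CCAAT on either strand.
Hist1h1b promoter (GRCm38.p6 chr13:21780576-21780875, - strand): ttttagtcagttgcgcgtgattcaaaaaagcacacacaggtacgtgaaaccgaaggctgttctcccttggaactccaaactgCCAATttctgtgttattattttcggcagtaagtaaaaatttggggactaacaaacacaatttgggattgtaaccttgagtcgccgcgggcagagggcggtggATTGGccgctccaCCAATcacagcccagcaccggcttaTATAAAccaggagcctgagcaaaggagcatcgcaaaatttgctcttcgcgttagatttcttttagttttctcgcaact
Hist1h2bp promoter (GRCm38.p6 chr13:21787238-21787537, + strand): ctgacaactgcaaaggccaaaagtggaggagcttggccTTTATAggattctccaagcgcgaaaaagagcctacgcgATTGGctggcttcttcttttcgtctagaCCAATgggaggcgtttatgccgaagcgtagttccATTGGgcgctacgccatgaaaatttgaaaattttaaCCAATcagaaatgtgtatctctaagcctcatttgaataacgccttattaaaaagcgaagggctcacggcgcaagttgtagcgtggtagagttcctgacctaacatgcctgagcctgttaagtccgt
Both windows hold both motifs, so their presence alone does not separate the genes, but place and strand differ. In Hist1h1b TATAAA reads on the gene's strand, between the CCAAT motifs and the start. In Hist1h2bp it occurs only on the opposite strand, farther from the start than every CCAAT motif.

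The libraries held 7441 to 11987 barcodes and 75578147 to 118147393 UMIs (unique molecular identifiers, 1 per captured molecule), and pairs of libraries shared 11 to 37 barcodes. Filters kept 4678 to 11053 cells per library in 65 clusters, which were named from marker genes without using histone genes, so a class is called Sertoli-like, for instance. Levels are given as CPM, the standard scale on which all UMIs summed over the cells of a class are brought to the same total, with exact Poisson 95% intervals. They count captured molecules, and capture without a poly(A) tail is not known and many members share sequence. They therefore do not order genes strictly by expression. With 1 library per time no difference has a replicate check or a test, intervals cover counting error only, and differences describe these libraries. A gene is called higher or lower when it has at least 20 UMIs in the 2 sums together, differs at least 2-fold, and the 95% interval of its ratio leaves out 1.

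Free RNA can add to these levels, and barcodes that should lack histone mRNA held it. Red-blood-cell-like barcodes at 0 h, which should lack it, held 1144 CPM of the 66 genes (median 2434 UMIs per barcode), with Hist1h2ap at 180 CPM and Hist1h4d at 171 CPM. These barcodes also held 126 CPM of the Sertoli gene Sox9, against 446 CPM in Sertoli-like cells. The germ cell gene Dazl stood at 389 CPM in them, against 798 CPM in undifferentiated-spermatogonia-like cells at 0 h. Whether they hold free RNA or are mixed with other cells was not tested. The histone sums of Leydig-like cells (1192 CPM) and undifferentiated-spermatogonia-like cells (1127 CPM) at 0 h lie at the level of the red-blood-cell-like barcodes. These sums alone therefore do not tell expression from free RNA. Barcodes of at most 1000 UMIs held 3297 CPM at 0 h, 523 CPM at 144 h and 704 CPM at 350.4 h.

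**Figure D1:**
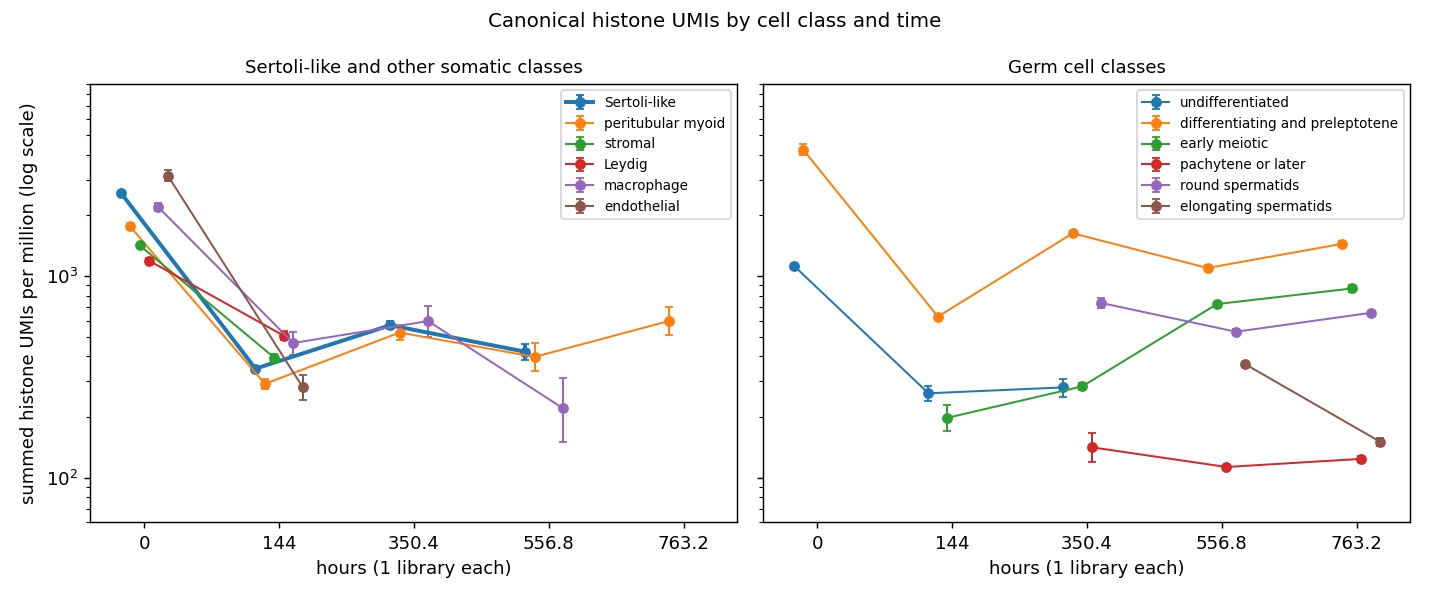
Summed level of the 66 canonical histone genes (CPM, log axis) in each cell class against time, 1 library per time, with 95% counting intervals. Sertoli-like cells stand at 2592 CPM at 0 h and between 347 and 570 CPM later, and pachytene-like cells stand lowest among the germ cell classes at 113 to 141 CPM.

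In Sertoli-like cells most canonical histone genes were far lower at 144 h than at 0 h. The summed level was 347 CPM (340 to 354) in 1302 cells at 144 h, against 2592 CPM (2576 to 2609) in 3223 cells at 0 h, a ratio of 0.134 (0.131 to 0.137). Of 59 genes with enough UMIs, 51 were lower and 2 were higher, while 21.1% of 14084 features tested were lower and 10.9% were higher. The median log2 ratio of the 59 was -4.05, against -0.12 over all features. Both sums lie below those of the barcodes of at most 1000 UMIs in their own libraries, 523 CPM at 144 h and 3297 CPM at 0 h. Those barcodes were not shown to hold free RNA alone. Within the 0 h class, cluster 2 held 4225 CPM, above that level, and the other clusters held less. For the set as a whole the sums alone therefore do not tell expression from free RNA, and the part of free RNA in the ratio was not measured.

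The 4 genes with the highest levels at 0 h all fell. The linker histone gene Hist1h1b stood at 19.9 CPM at 144 h, against 528 CPM at 0 h, a ratio of 0.0378 (0.0346 to 0.0411). Hist1h1e, another linker histone, stood at 33.5 CPM at 144 h and 407 CPM at 0 h (ratio 0.0824, 0.0770 to 0.0880). The H2A gene Hist1h2ap held 67 UMIs at 144 h, or 2.42 CPM, against 11281 UMIs at 0 h, or 316 CPM (ratio 0.00766, 0.00593 to 0.00973). The H4 gene Hist1h4d stood at 3.29 CPM at 144 h, against 227 CPM at 0 h (ratio 0.0145, 0.0116 to 0.0178). These 4 genes thus moved the same way, by different amounts. Of Hist1h2ap, 93.1% of its 50-base stretches also occur in Hist1h2ao, so its reads can be shared with that gene, and 33 members have under 50% stretches of their own.

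Among the lowest ratios, Hist1h2af held 1 UMI at 144 h and 889 at 0 h, and Hist1h3d held 0 UMIs at 144 h and 104 at 0 h. Hist1h3c stood at 0.578 CPM at 144 h, against 58.0 CPM at 0 h, and the H2A gene Hist1h2ab at 1.23 CPM at 144 h, against 81.3 CPM at 0 h. Every H1 gene was lower, 5 of 5, as were 14 of 15 H2A, 12 of 16 H2B, 10 of 12 H3 and 10 of 11 H4 genes tested. Hist1h1c fell least among the linker histones, to 38.5 CPM at 144 h, against 82.2 CPM at 0 h (ratio 0.468, 0.436 to 0.502). The type that moved least was H2B, whose sum was 149 CPM at 144 h and 221 CPM at 0 h (ratio 0.672, 0.647 to 0.698), mostly through Hist1h2bc. The ratios of the H1, H2A and H3 sums were 0.0873, 0.0910 and 0.0921, and that of H4 was 0.0465.

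By 3′ end the sums fell by different amounts, and a few genes held much of each sum at 144 h. Members with a stem-loop and no terminal AATAAA summed to 69.8 CPM at 144 h and 1508 CPM at 0 h, a ratio of 0.0463 (0.0442 to 0.0484). Members with a terminal AATAAA summed to 109 CPM at 144 h and 296 CPM at 0 h, a ratio of 0.370 (0.355 to 0.385). Members with neither had a ratio of 0.212 (0.206 to 0.219). Without the 3 genes with most UMIs at 144 h (Hist3h2a, Hist1h1c and Hist2h3c1) the ratio of the terminal AATAAA group was 0.0622 (0.0553 to 0.0698), and without its 3 (Hist1h1e, Hist1h4h and Hist2h3c2) that of the stem-loop group was 0.0236 (0.0218 to 0.0254). Without Hist1h2bc the members with neither had a ratio of 0.0421 (0.0392 to 0.0451). The genes left out were picked by their UMIs at 144 h, which itself tends to lower a ratio. These values therefore do not test the difference between the groups. Of the stem-loop group 27 of 28 tested genes were lower, with a median log2 ratio of -4.84, of the terminal AATAAA group 7 of 12, with a median of -1.16, and of the members with neither 17 of 19, with a median of -4.07. Hist1h2ae, which has a terminal AATAAA and the highest 0 h level of that group, stood at 2.64 CPM at 144 h and 147 CPM at 0 h (ratio 0.0180). Hist1h1c, Hist3h2a and Hist2h3c1 hold both sites, as shown above, and had ratios of 0.468, 1.53 and 13.5.

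Hist1h2bc was not called and stood at 138 CPM at 144 h and 97.1 CPM at 0 h (ratio 1.43, 1.36 to 1.49), which made it the histone gene with the highest level at 144 h. Its annotated transcript has no stem-loop and holds an AATAAA well before its end. Hist3h2a, an H2A gene outside the large clusters, stood at 52.6 CPM at 144 h and 34.3 CPM at 0 h (ratio 1.53, 1.42 to 1.66) and was not called either. It overlaps Trim17 on the same strand. The 2 genes that rose encode H3: Hist2h3c1 stood at 7.19 CPM at 144 h and 0.532 CPM at 0 h (ratio 13.5, 8.42 to 22.9), and Hist2h3c2 at 4.48 CPM at 144 h and 0.672 CPM at 0 h (ratio 6.66, 4.28 to 10.8). All 50-base stretches of Hist2h3c1 and 63.5% of those of Hist2h3c2 also occur in Gm20634, so their counts are uncertain. Gm20634 is a gene model that overlaps Hist2h3c1.

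**Figure D2:**
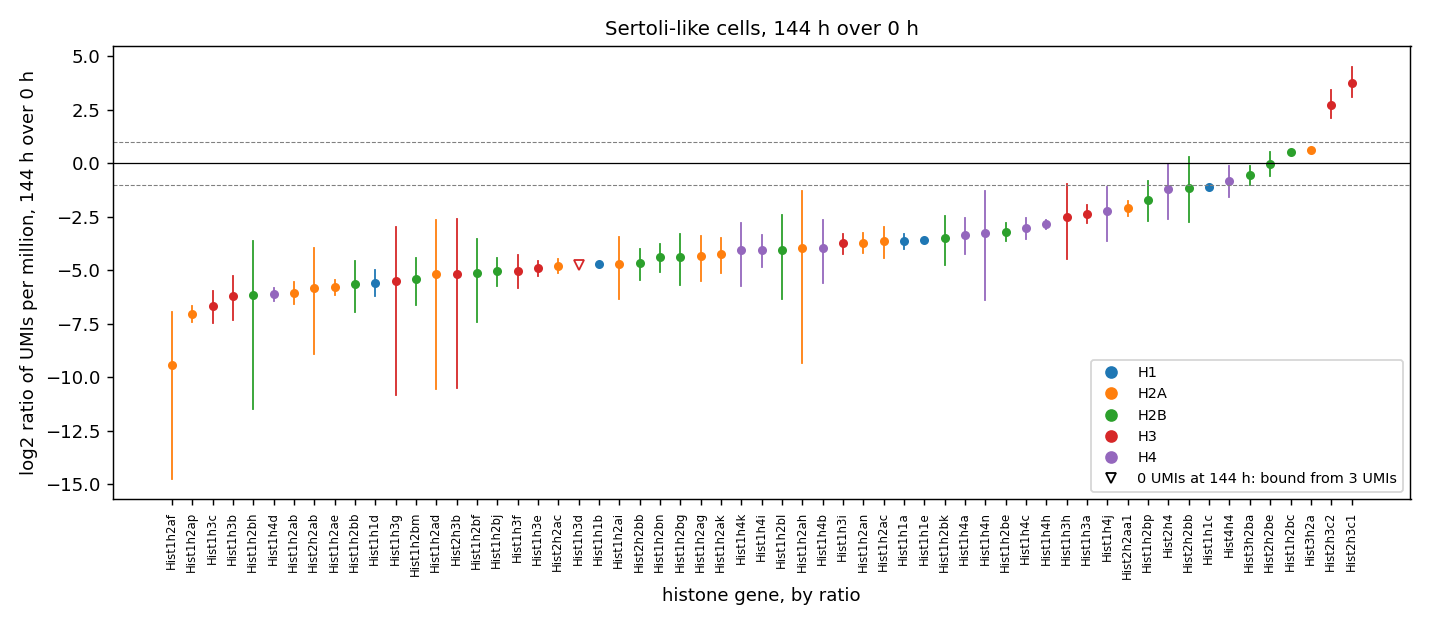
Log2 ratio of CPM in Sertoli-like cells, 144 h over 0 h, for each histone gene tested, coloured by histone type, with 95% counting intervals and dashed lines at a 2-fold difference. Of 59 genes 51 lie below the lower line with intervals that leave out 0 on the log2 axis, and Hist2h3c1 and Hist2h3c2 lie above the upper line.

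Of the lists of genes that work beside histones, the mitosis list had a ratio close to that of the histone sum and the others had larger ratios. The replication list (DNA synthesis genes such as Pcna and the Mcm helicase genes) summed to 370 CPM at 144 h and 1112 CPM at 0 h (ratio 0.333), with 17 of 20 lower. The mitosis list summed to 206 CPM at 144 h and 1340 CPM at 0 h (ratio 0.154), with 14 of 16 lower, and its proliferation marker Mki67 stood at 1.84 CPM at 144 h and 94.7 CPM at 0 h. Slbp, which binds the stem-loop, was not called, at 95.1 CPM at 144 h and 144 CPM at 0 h, and 0 of 9 tested genes of histone mRNA processing were called. Of 11 histone chaperone genes 5 were lower, among them Nasp at 92.5 CPM at 144 h and 217 CPM at 0 h. Of 10 replacement histone genes 5 were lower, including H2afz at 609 CPM at 144 h and 1445 CPM at 0 h, while H3f3b, which encodes a replacement H3, was not called at 2124 CPM at 144 h and 3530 CPM at 0 h.

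The summed histone level was also lower at 144 h in the other classes compared, with the same limit. Apart from differentiating-like cells their 0 h sums lie below the 3297 CPM of the shallow barcodes, and those of Leydig-like and undifferentiated-like cells lie at the level of red-blood-cell-like barcodes, so their ratios are not read as expression. The ratio of the summed histone level, 144 h over 0 h, was 0.165 in peritubular-myoid-like cells, 0.277 in stromal-like cells, 0.424 in Leydig-like cells, 0.212 in macrophage-like cells and 0.0893 in endothelial-like cells (54 cells at 144 h and 34 at 0 h). It was 0.148 in differentiating-like germ cells and 0.232 in undifferentiated-like cells. Lower members numbered 27 of 33 tested in peritubular-myoid-like cells (3.96% of all features), 30 of 38 in stromal-like cells (5.4%), 17 of 24 in Leydig-like cells (9.67%), 13 of 17 in macrophage-like cells (12.2%), 12 of 14 in endothelial-like cells (5.48%) and 26 of 44 in undifferentiated-like cells (6.03%). Higher members in the same order numbered 2 (7.75%), 1 (6.78%), 0 (4.39%), 0 (14.1%), 1 (6.82%) and 0 (1.99%). In 3 germ cell classes the replication list did not follow, with ratios of 1.37 in undifferentiated-like cells, 1.12 in differentiating-like cells and 1.25 in germ cells without a stage. The stem-loop group had a smaller ratio than the terminal AATAAA group in these somatic classes: 0.0575 for stem-loop and 0.561 for terminal AATAAA members in peritubular-myoid-like cells, 0.131 and 0.709 in stromal-like cells, and 0.118 and 0.590 in Leydig-like cells. Without the 3 genes with most UMIs at 144 h of each group the same ratios were 0.0444 and 0.109 in peritubular-myoid-like cells, 0.157 and 0.636 in stromal-like cells, and 0.0975 and 0.242 in Leydig-like cells.

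A library-wide difference lay beside these ratios. Gm42418 and AY036118, 2 features that collect ribosomal RNA reads and were picked after their values were seen, were lower at 144 h in all 9 classes compared. The ratio of Gm42418, 144 h over 0 h, ran from 0.187 to 0.365 and that of AY036118 from 0.0193 to 0.157. In Sertoli-like cells Gm42418 held 7898, 2008, 10548 and 2904 CPM at 0, 144, 350.4 and 556.8 h, while the histone sums at those times were 2592, 347, 570 and 421 CPM. Malat1, a nuclear noncoding RNA, had a ratio of 1.04 in Sertoli-like cells. The part of these library differences in the histone ratios was not tested, and with 1 library per time the library and the time cannot be told apart.

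Within the 0 h library the histone level of Sertoli-like cells went with their replication and mitosis UMIs. In cells thinned to 2000 UMIs, those with 0 replication UMIs held 1986 CPM (1900 to 2075; 506 cells), those with 1 or 2 held 2615 CPM (1186 cells) and those with 3 or more held 4518 CPM (4427 to 4611; 1033 cells). Grouped by mitosis UMIs the same cells held 1064, 2116 and 6223 CPM. At 144 h the groups by replication UMIs held 333 CPM (301 to 366), 375 CPM (342 to 410) and 372 CPM (259 to 518), and their intervals overlap. The grouping is a range of a count, not a cell type, and the depth of the cells before thinning ran the other way at 0 h, with medians of 12830, 6033 and 5211 UMIs. Without thinning, the ratio of the top group to the bottom group was 0.855, against 2.28 with thinning, so the direction rests on it.

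By replication UMIs at 0 h, Hist1h1b held 354, 469 and 977 CPM and Hist1h2ap held 141, 272 and 650 CPM. Hist1h1e held 382, 478 and 629 CPM over the same groups. These 3 genes followed the order of the sum, whereas Hist3h2a held 35.6, 38.4 and 28.6 CPM. Hist1h2bc ran down over the replication groups, with 142, 95.7 and 45.5 CPM, and up over the mitosis groups, with 69.6, 85.1 and 102 CPM, so it had no single order.

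**Figure D3:**
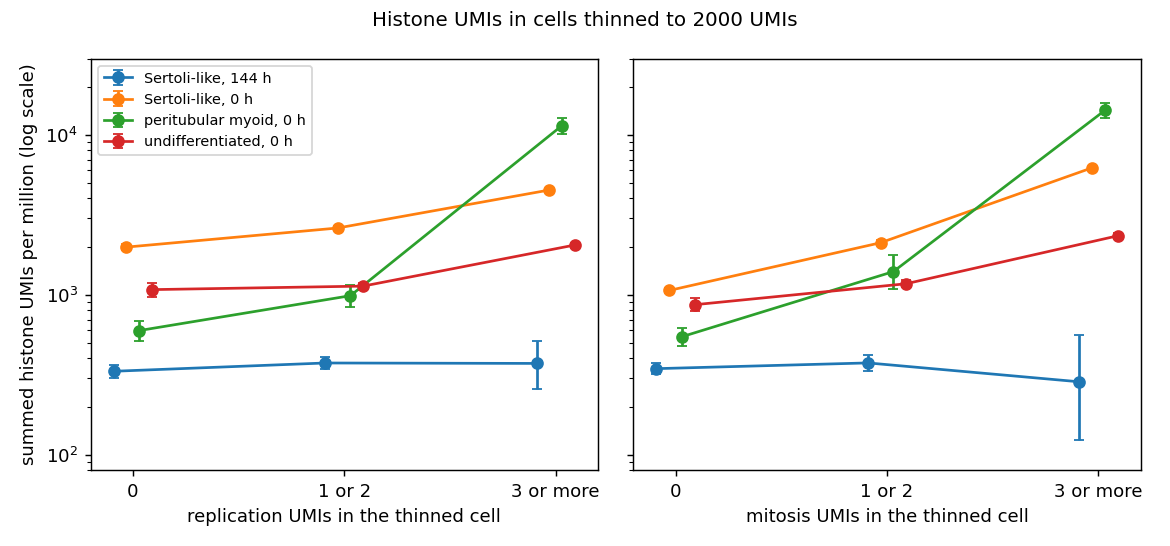
Summed histone level (CPM, log axis) in cells thinned to 2000 UMIs, grouped by their UMIs of the replication list (left) and the mitosis list (right), with 95% counting intervals. Sertoli-like cells at 0 h climb over both axes, to 4518 and 6223 CPM in the top groups, while those at 144 h lie between 286 and 375 CPM. Peritubular-myoid-like and undifferentiated-like cells at 0 h are drawn too and stand highest in the top groups.

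The Sertoli-like class at 0 h held 4 clusters. Cluster 2, 1799 cells with a median of 2822 UMIs, held 4225 CPM, and cluster 5, 1199 cells with a median of 17038 UMIs, held 2372 CPM. Cluster 53, 194 cells with 0.315% mitochondrial UMIs and 27.6 CPM of Sox9, held 463 CPM, and without it the ratio of 144 h to 0 h was 0.127. The Sertoli-like clusters of 144 h held 324 to 378 CPM. All 0 h clusters thus stood above those of 144 h, cluster 53 closest to them.

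At 350.4 h, 10 of 32 tested histone genes were higher than at 144 h in Sertoli-like cells and 1 was lower, while 13.4% of 12859 features were higher and 6.94% lower. The sum was 570 CPM (543 to 598) in 527 cells at 350.4 h and 347 CPM at 144 h, a ratio of 1.64 (1.56 to 1.73). Over other settings the count of higher genes ran from 3, in cells under 10% mitochondrial UMIs, to 14, with equal weight per cell. Most of the cells, 460 in cluster 32, were shallow, with a median of 1338 UMIs, and held 654 CPM, below the 704 CPM of the shallow barcodes of that library. The 60 deep cells of cluster 56 held 537 CPM.

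Hist1h2bc led at 350.4 h with 286 CPM, against 138 CPM at 144 h (ratio 2.07, 1.91 to 2.23). Higher ratios belonged to Hist1h2bp, at 14.1 CPM at 350.4 h and 0.469 CPM at 144 h (ratio 29.9, 15.7 to 60.9), and Hist1h4a, at 11.7 CPM at 350.4 h and 0.506 CPM at 144 h (ratio 23.1, 12.1 to 46.5). Both are the leading histone genes of round-spermatid-like cells, and the shallow barcodes of this library held 104 CPM of Hist1h2bp and 33.3 CPM of Hist1h4a. Without these 2 genes the ratio of the sums was 1.57. Hist1h2ap stood at 22.3 CPM at 350.4 h and 2.42 CPM at 144 h (ratio 9.21, 6.45 to 13.2), and the H4 gene Hist1h4h at 32.2 CPM at 350.4 h and 7.04 CPM at 144 h. Hist1h1b was the gene called lower, at 8.92 CPM at 350.4 h and 19.9 CPM at 144 h. Beside this, the mitosis list summed to 510 CPM at 350.4 h and 206 CPM at 144 h, with 14 of 16 higher, while 0 of 20 replication genes were called. The 3 testis histones outside the set were all higher.

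Fewer genes were called between the later times. At 556.8 h the sum was 421 CPM (384 to 460) in 47 cells, against 570 CPM at 350.4 h (ratio 0.739, 0.666 to 0.818), with 0 of 13 tested genes higher and 2 lower (12.1% and 4.99% of all features). The 2 that fell were Hist1h4d, with 1 UMI at 556.8 h and 19 at 350.4 h, and Hist1h1a, with 4 UMIs at 556.8 h and 36 at 350.4 h. Only 16 cells of the class were left at 763.2 h, so that time was compared in cells under 50% mitochondrial UMIs, where the sums were 2512, 341, 514, 432 and 493 CPM from 0 to 763.2 h. Against 556.8 h the ratio was 1.14 (1.04 to 1.25), and Hist1h2bp, at 23.6 CPM at 763.2 h and 7.47 CPM at 556.8 h, was the 1 gene of 12 called higher (4.81% of all features), while 0 were lower (3.5%). Against 0 h, 37 of 57 tested genes were lower at 763.2 h (17.6% of all features) and 5 higher (20.7%), and the sum ratio was 0.196 (0.182 to 0.211). Hist1h2bc was among the 5, at 209 CPM at 763.2 h and 99.9 CPM at 0 h.

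**Figure D4:**
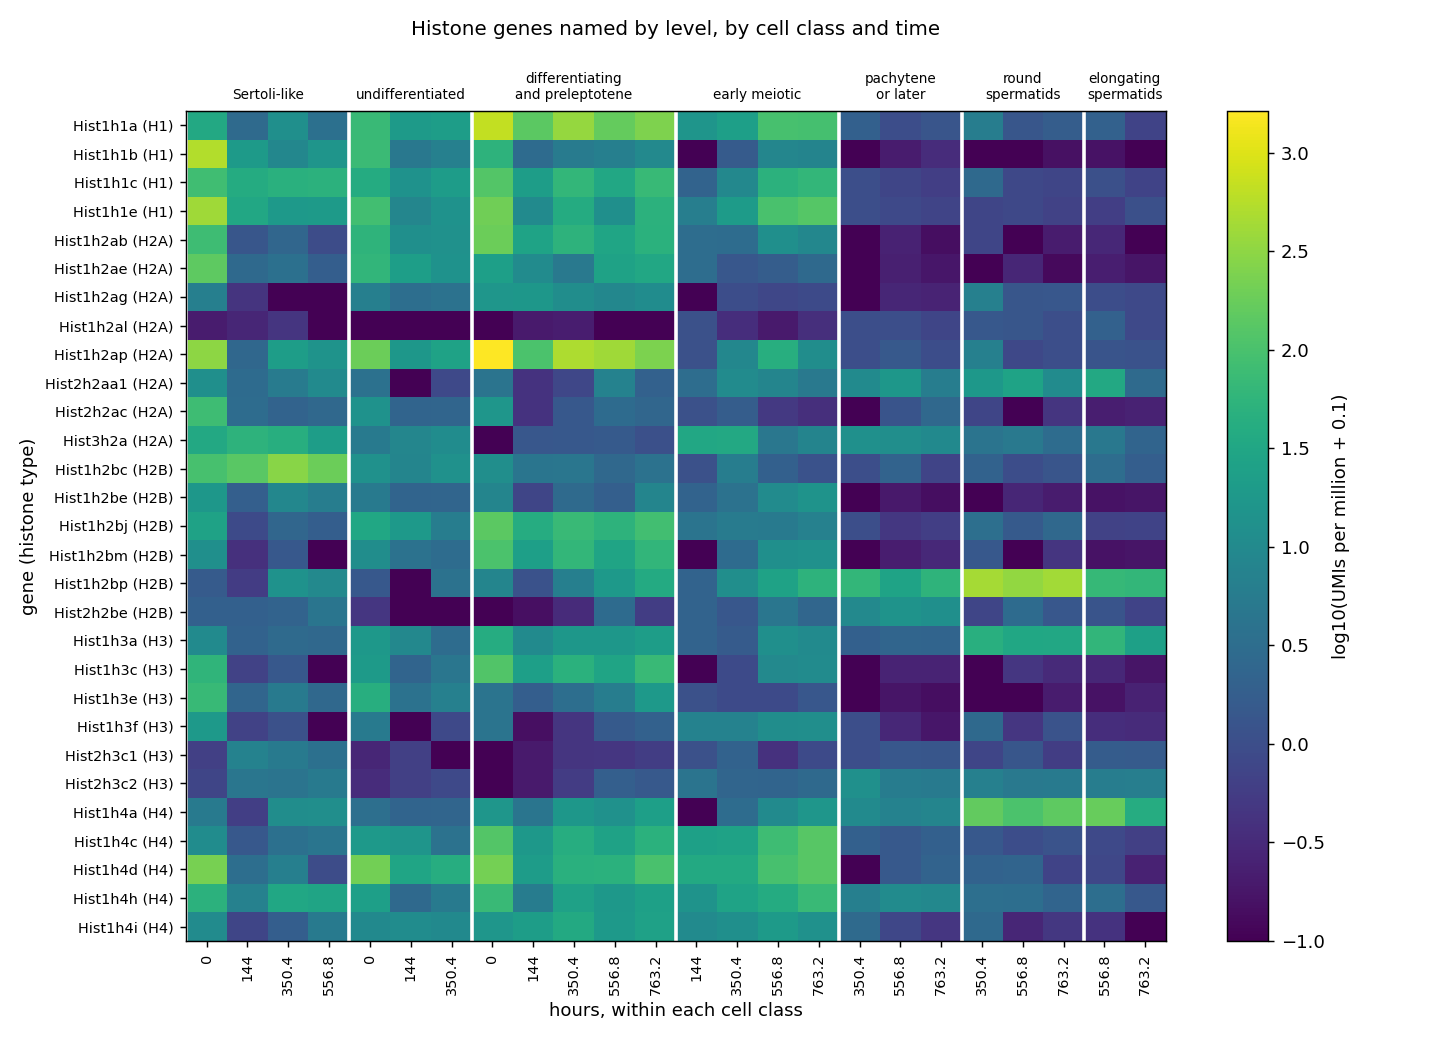
Heat map of log10 of CPM plus 0.1 for the 29 histone genes named by level, by cell class and time (1 library per time). In Sertoli-like cells most genes high at 0 h are darker (lower) later, apart from Hist1h2bc at 138 to 286 CPM, and Hist1h2bp and Hist1h4a are high in the spermatid classes.

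Over the 144 to 556.8 h Sertoli-like cells Hist1h2bc stood first in level, at 138, 286 and 186 CPM. In peritubular-myoid-like cells it stood at 35.9, 104, 194, 136 and 175 CPM from 0 to 763.2 h. In Leydig-like cells it stood at 309 CPM at 144 h and 230 CPM at 0 h. Of the germ cell classes with a stage none exceeded 13.5 CPM. Red-blood-cell-like barcodes at 0 h held 44.2 CPM of it, above the peritubular-myoid-like level of that time. Hist1h2bc thus stood higher in Sertoli-like, peritubular-myoid-like and Leydig-like cells than in any of these germ cell classes. Stromal-like cells did so too, at 47.0 CPM at 0 h and 90.4 CPM at 144 h, as did endothelial-like cells, at 17.9 and 54.5 CPM. Within the pachytene-like class, cluster 46 held 63.1 CPM over all times.

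The germ cell classes followed another order. Differentiating-like cells, whose markers also cover preleptotene spermatocytes entering meiosis, held 4239 CPM (28 cells), 628, 1628, 1095 and 1444 CPM from 0 to 763.2 h. Undifferentiated-like cells held 1127, 262 and 280 CPM from 0 to 350.4 h. Early-meiotic-like cells held 198 CPM (34 cells), 283, 725 and 867 CPM from 144 to 763.2 h. In each library that held both neighbours, the differentiating-like class was the higher of these as grouped here.

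Against undifferentiated-like cells the sum in differentiating-like cells was 3.76-fold higher at 0 h (3.53 to 4.00), while the ratios of the 144 h and 350.4 h libraries were 2.40 (2.19 to 2.63) and 5.82 (5.25 to 6.46). The 0 h fold is set against a sum at the level of red-blood-cell-like barcodes. The undifferentiated-like sums at 144 h and 350.4 h, 262 and 280 CPM, lie below the 523 and 704 CPM of the shallow barcodes. The part of free RNA in these ratios was not measured. For 350.4 h the result with an assumed 10% of free RNA subtracted is given with the other settings below. The 144 h ratio turned to 0.990 in cells under 10% mitochondrial UMIs and was 1.02 at Leiden resolution 1 and with doublets kept, and the 350.4 h ratio was 1.76 in cells of at least 5000 UMIs, 2.43 under 10% mitochondrial UMIs and 2.94 at resolution 1, so their size rests on the choice of cells. Higher genes numbered 21 of 45 tested at 0 h (9.42% of all features), 17 of 41 at 144 h (12.8%) and 24 of 39 at 350.4 h (17.3%), and 2, 2 and 3 were lower (8.99%, 12.5% and 12.9%). Hist1h2ap and Hist1h1a held the first 2 places of the differentiating-like class in all 5 libraries. At 350.4 h Hist1h2ap stood at 499 CPM in differentiating-like cells and 26.9 CPM in undifferentiated-like cells (ratio 18.5, 13.4 to 26.5). The linker histone gene Hist1h1a stood at 357 CPM in differentiating-like cells and 22.5 CPM in undifferentiated-like cells (ratio 15.9, 11.1 to 23.6). The H2B gene Hist1h2bm had a ratio of 20.7 (8.05 to 76.4), at 62.1 CPM in differentiating-like cells and 2.99 CPM in undifferentiated-like cells. Lower in differentiating-like cells were Hist3h2a (1.37 CPM, against 11.2 CPM in undifferentiated-like cells), Hist1h2bc and Hist1h2ae. Of the replication list 15 of 20 genes were higher at this step at 350.4 h, and of the mitosis list 16 of 16.

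Clusters present in 2 libraries differed between them. Cluster 11, of the differentiating-like class, held 1633 CPM in 307 cells at 350.4 h and 630 CPM in 620 cells at 144 h, while Stra8, a gene of meiotic entry, stood at 138 CPM at 350.4 h and 431 CPM at 144 h. Cluster 3, germ cells without a stage, held 3004 CPM in 49 cells at 350.4 h and 646 CPM in 1535 cells at 144 h, with Stra8 at 1624 CPM at 350.4 h and 1633 CPM at 144 h. Replication UMIs of cluster 11 were 2728 CPM at 350.4 h and 2921 CPM at 144 h. In cluster 11 the lower histone level at 144 h thus stood beside a replication level that was not lower.

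Early-meiotic-like cells held less histone UMI than differentiating-like cells in every library with both. From 144 to 763.2 h the ratios were 0.315, 0.174 (0.166 to 0.182), 0.662 (0.635 to 0.691) and 0.6001 (0.571 to 0.631). Lower genes numbered 22 of 40 tested at 144 h (29.5% of all features), 31 of 44 at 350.4 h (35.5%), 14 of 38 at 556.8 h (19.9%) and 16 of 34 at 763.2 h (22%). In the same time order 2 (16.7%), 4 (24.4%), 9 (13.5%) and 5 (18.8%) were higher. In cells of at least 5000 UMIs the ratio turned to 1.13 at 144 h, 1.17 at 556.8 h and 1.40 at 763.2 h, so the direction of the sum at those times rests on the shallower cells. At 350.4 h it was 0.430 in these deeper cells. The early-meiotic-like sums at 144 h and 350.4 h lie below those of the shallow barcodes of their libraries.

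Hist1h2ap was lower at this step in all 4 libraries. It fell to 44.5 CPM in early-meiotic-like cells, against 411 CPM in differentiating-like cells at 556.8 h, and to 11.3 CPM in early-meiotic-like cells, against 241 CPM in differentiating-like cells at 763.2 h (ratio 0.0471, 0.0337 to 0.0644). Hist1h1a stood at 93.4 CPM in early-meiotic-like cells and 252 CPM in differentiating-like cells at 763.2 h. Other histone genes were higher in early-meiotic-like cells. At 763.2 h Hist1h4c stood at 133 CPM in early-meiotic-like cells and 48.5 CPM in differentiating-like cells (ratio 2.74, 2.21 to 3.42). Hist1h1e stood at 125 CPM in early-meiotic-like cells and 50.4 CPM in differentiating-like cells, and Hist1h4h at 72.0 CPM in early-meiotic-like cells and 24.7 CPM in differentiating-like cells. These 3 genes were called higher at 556.8 h too, with ratios of 2.98, 8.05 and 2.26. Of the replication list 14 of 20 genes were lower at 763.2 h, and of the 3 testis histones outside the set all were higher.

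Pachytene-like cells, which include later spermatocytes, held the least histone UMI of the germ cell classes, at 141 CPM (42 cells), 113 and 124 CPM from 350.4 to 763.2 h. Against early-meiotic-like cells the ratio was 0.499 (0.420 to 0.589) at 350.4 h, 0.156 (0.151 to 0.161) at 556.8 h and 0.143 (0.136 to 0.150) at 763.2 h. Lower genes numbered 13 of 21 tested at 350.4 h (31.3% of all features), 28 of 39 at 556.8 h (35.8%) and 21 of 30 at 763.2 h (37.8%), with 4 (23.2%), 8 (20.1%) and 2 (22.4%) higher. With TMM factors the ratio was 0.409 at 556.8 h and 0.345 at 763.2 h, where 8 genes were then higher. The median log2 ratio at 763.2 h was -5.30, against -0.44 over all features. Linker histone and H4 genes were among those that fell. At 763.2 h all 5 H1 genes were lower: Hist1h1e stood at 0.618 CPM in pachytene-like cells and 125 CPM in early-meiotic-like cells (ratio 0.00494, 0.00274 to 0.00823), and Hist1h1a at 1.19 CPM in pachytene-like cells and 93.4 CPM in early-meiotic-like cells. Among H4 genes Hist1h4c stood at 1.85 CPM in pachytene-like cells and 133 CPM in early-meiotic-like cells, and Hist1h4d at 2.06 CPM in pachytene-like cells and 131 CPM in early-meiotic-like cells.

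A few genes of the Hist2 cluster rose at this step. Hist2h2be, an H2B gene with a terminal AATAAA and no stem-loop in its annotation, stood at 12.7 CPM in pachytene-like cells and 2.37 CPM in early-meiotic-like cells at 763.2 h (ratio 5.34, 2.78 to 11.8). It was called higher at 556.8 h too, at 14.5 CPM in pachytene-like cells and 4.42 CPM in early-meiotic-like cells, and at 350.4 h, at 9.36 CPM in pachytene-like cells and 1.28 CPM in early-meiotic-like cells. The H2A gene Hist2h2aa1 rose at 556.8 h, at 17.0 CPM in pachytene-like cells and 8.15 CPM in early-meiotic-like cells. Of the 50-base stretches of Hist2h2aa1, 89.4% also occur in Gm20634, so its counts are uncertain. Hist1h2bp was not called at 763.2 h, at 54.5 CPM in pachytene-like cells and 53.8 CPM in early-meiotic-like cells.

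Round-spermatid-like cells held more histone UMI than pachytene-like cells, through a few genes. The sum was 735 CPM at 350.4 h (140 cells), 529 CPM at 556.8 h (435 cells) and 656 CPM at 763.2 h (2896 cells). The ratio to pachytene-like cells was 5.20 at 350.4 h, 4.69 at 556.8 h and 5.30 (5.10 to 5.51) at 763.2 h. With equal weight per cell these ratios were 3.10, 2.57 and 2.65. Higher genes numbered 3 of 6 tested at 350.4 h (29.6% of all features), 4 of 21 at 556.8 h (28.5%) and 8 of 25 at 763.2 h (31.5%), and 1 (29.5%), 4 (22.1%) and 7 (31%) were lower. By count the set therefore stood near the share of all features.

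The gain lay in Hist1h2bp (H2B), Hist1h4a (H4) and Hist1h3a (H3), each called higher in all 3 libraries. Hist1h2bp stood at 432 CPM in round-spermatid-like cells and 54.5 CPM in pachytene-like cells at 763.2 h (16036 UMIs in round-spermatid-like and 1323 in pachytene-like cells, ratio 7.93, 7.501 to 8.40). In the earlier libraries it stood at 451 CPM in round-spermatid-like cells and 60.8 CPM in pachytene-like cells at 350.4 h, and at 334 CPM in round-spermatid-like cells and 27.5 CPM in pachytene-like cells at 556.8 h. Hist1h2bp thus made up most of the H2B sum of 439 CPM in round-spermatid-like cells at 763.2 h. Hist1h4a stood at 149.8 CPM in round-spermatid-like cells and 8.28 CPM in pachytene-like cells at 763.2 h (ratio 18.1, 15.7 to 20.9). Hist1h3a stood at 33.9 CPM in round-spermatid-like cells and 2.14 CPM in pachytene-like cells (ratio 15.8, 11.98 to 21.3). Hist1h2bp is annotated with a stem-loop and, in another transcript, with a terminal AATAAA. Hist1h4a is annotated with a terminal AATAAA only, and Hist1h3a with a stem-loop only. By 3′ end, round-spermatid-like cells at 763.2 h held 588 CPM of terminal AATAAA members, 63.1 CPM of stem-loop members and 4.45 CPM of the rest. Early-meiotic-like cells of that library held 164, 578 and 124 CPM of these. Most of the 588 CPM came from Hist1h2bp and Hist1h4a, so it describes these genes and not the 3′ end group.

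Hist1h2bp lies head to head with the H2A gene Hist1h2an, 242 bases away, within 500 bases as do 11 such pairs of members. In round-spermatid-like cells at 763.2 h Hist1h2bp held 16036 UMIs and Hist1h2an held 2. In Sertoli-like cells at 0 h the pair ran the other way, with 1.54 CPM of Hist1h2bp and 20.4 CPM of Hist1h2an. Only 14.2% of 50-base stretches of Hist1h2an are its own, 80.5% occur in Hist1h2ah as well, and no base after its stop codon is annotated, so its reads may be split or missed.

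Hist2h2be, higher in pachytene-like cells than in the class before, was also higher there than in the class after. At 763.2 h Hist2h2be stood at 1.29 CPM in round-spermatid-like cells and 12.7 CPM in pachytene-like cells, and Hist3h2a at 2.99 CPM in round-spermatid-like cells and 9.92 CPM in pachytene-like cells. The H4 gene Hist1h4h stood at 2.21 CPM in round-spermatid-like cells and 9.02 CPM in pachytene-like cells.

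Elongating-spermatid-like cells held 365 CPM at 556.8 h and 150 CPM at 763.2 h, against 529 and 656 CPM in round-spermatid-like cells at those times. The ratio was 0.690 (0.660 to 0.721) at 556.8 h and 0.229 (0.219 to 0.240) at 763.2 h, but both depend on the scaling. The 556.8 h ratio turned to 1.71 with DESeq2 factors and 1.67 with TMM factors, each with 11 genes higher and 1 lower. The 763.2 h ratio was 0.714 with DESeq2 factors (9 higher, 1 lower) and 0.434 with TMM factors (5 higher, 3 lower). Lower genes numbered 3 of 15 tested at 556.8 h (46.5% of all features) and 7 of 22 at 763.2 h (61.5%), and 1 was higher at each time (12.3% and 8.14%). Lower calls were fewer than the share of all features at both times. Hist1h2bp fell in both libraries, to 65.5 CPM in elongating-spermatid-like cells, against 334 CPM in round-spermatid-like cells at 556.8 h, and to 60.6 CPM in elongating-spermatid-like cells, against 432 CPM in round-spermatid-like cells at 763.2 h. Hist1h4a was called lower at 763.2 h, at 41.0 CPM in elongating-spermatid-like cells and 149.8 CPM in round-spermatid-like cells, and was not called at 556.8 h, at 171 CPM in elongating-spermatid-like cells and 103 CPM in round-spermatid-like cells. Hist1h3a was not called at either time.

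**Figure D5:**
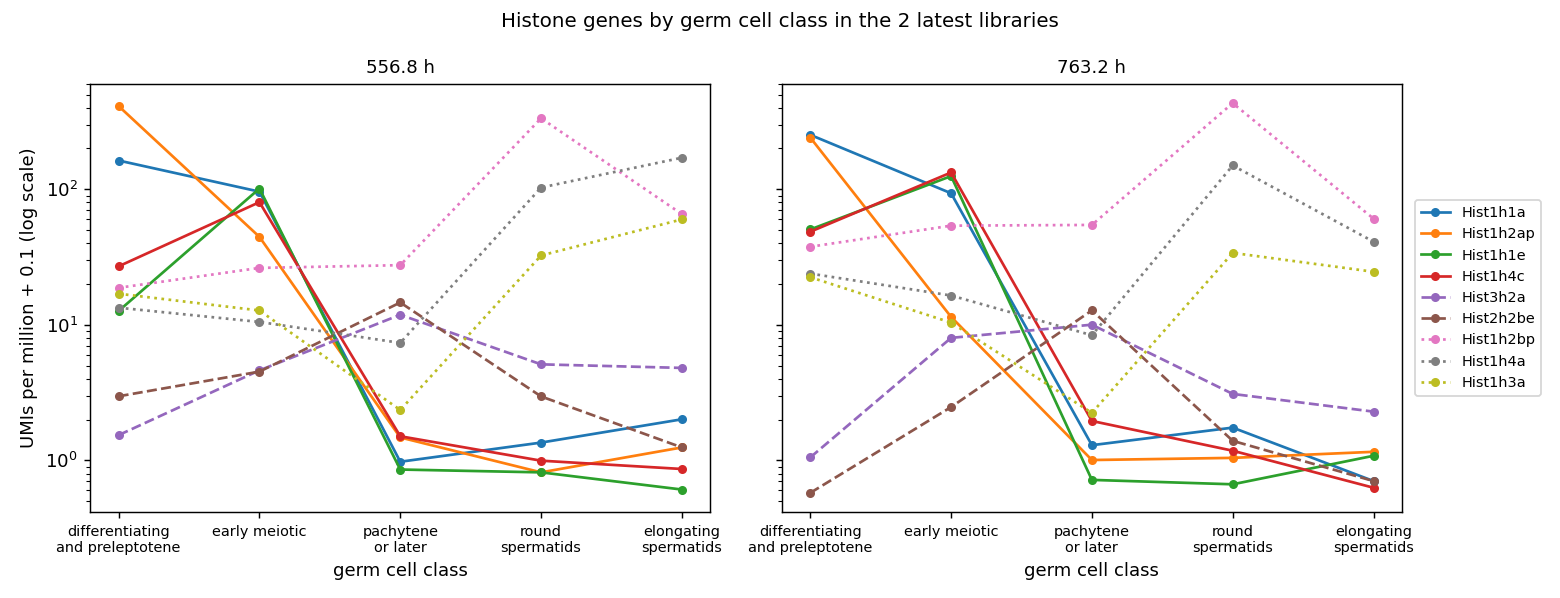
Levels of 9 histone genes by germ cell class at 556.8 h (left) and 763.2 h (right), as CPM plus 0.1 on a log axis, 1 library each. Hist1h1e and Hist1h1a fall to below 2 CPM in pachytene-like cells, and Hist1h2bp, Hist1h4a and Hist1h3a climb in round-spermatid-like cells, Hist1h2bp to 334 and 432 CPM.

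Across the named classes 58 members had at least 100 UMIs in all kept cells and 8 had fewer, none with 0. Of the 58, 28 were highest in differentiating-like cells, 20 in Sertoli-like cells (17 of them at 0 h), 4 in elongating-spermatid-like cells, 2 each in early-meiotic-like and pachytene-like cells, and 1 each in round-spermatid-like and undifferentiated-like cells. Of the 28, 19 peaked at 0 h, where the class had 28 cells. Named by level were 29 members, and the other 37 reached at most 56.5 CPM, for Hist1h2bb in differentiating-like cells at 0 h, from 14 UMIs.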

How the data were processed

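Raw UMI counts per gene and barcode, 1 table per library, were deposited by the authors. Per the file headers, Cell Ranger 3.0.2 made them. The submitters' processing notes name the build mm10 and Seurat 4.3.0.1 without their role. The sources used here give no other settings and no capture kit.

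Barcodes with under 1000 UMIs, under 500 genes or at least 20% mitochondrial UMIs were left out, as were those with a Scrublet score of 0.25 or more (expected doublet rate 0.08), since the automatic cut called 0 to 351 barcodes a library. This kept 7731, 6374, 4678, 8414 and 11053 cells from 0 to 763.2 h. Leiden clusters (resolution 2, 3000 variable genes, 40 components, 15 neighbours, scanpy 1.11.5) were computed without histone genes, mitochondrial genes and list genes. Cluster names needed a mean marker score of at least 0.75, a lead of 0.25 and 3 markers of at least 20 CPM, cut-offs set after the data were seen. Unnamed clusters held 0.336%, 17.4%, 27.9%, 0.725% and 7.77% of kept cells.

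UMIs were summed per class and library, with 20 cells as the minimum. Ratios have exact conditional binomial 95% intervals (scipy 1.17.1), and 0 UMIs were set against a floor of 3. No test was made. Genes named are those with at least 100 UMIs among the 10 highest of a class, and the 5 highest and 5 lowest called between neighbouring times or stages. The members, lists and rules were chosen with earlier results of these data known. Alternatives were other filters, scalings by edgeR 4.0.16 (TMM) and DESeq2 1.42.0 factors, and clusterings. Those on clusters 7, 53 and 62, on Hist1h2bp and Hist1h4a and on the leading genes of each 3′ end group were chosen after seeing the data. Stem-loops and AATAAA were searched in annotated transcripts of GRCm38, with 64 members matched by ID and 2 by symbol.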

Additional observations from a re-analysis of the deposited data

Results flagged for a closer look

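Hist4h4, an H4 gene, went opposite ways at the step into early meiosis in 2 libraries, a difference that was not tested. At 350.4 h it held 11 UMIs in early-meiotic-like cells and 38 in differentiating-like cells, a ratio of 0.325. At 556.8 h it held 26 UMIs in early-meiotic-like cells and 0 in differentiating-like cells, which is at least 2.37-fold higher against a floor of 3 UMIs.

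Hist3h2a, an H2A gene, also went opposite ways between 2 libraries, untested. It stood at 13.1 CPM in pachytene-like cells and 34.3 CPM in early-meiotic-like cells at 350.4 h, a ratio of 0.381, and at 11.8 CPM in pachytene-like cells and 4.51 CPM in early-meiotic-like cells at 556.8 h, a ratio of 2.61.

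Histone UMIs were also found outside the classes compared. Barcodes removed by the filters held 1347, 472, 579, 264 and 503 CPM of the 66 genes from 0 to 763.2 h. Unnamed clusters held 20640, 368, 198, 123 and 196 CPM at these times. The high value at 0 h comes from 26 cells, of which 24 form cluster 61, led by the contractile and mural genes Rgs5, Tagln and Myh11, with 21342 CPM of histone genes.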

How the results depend on the processing

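In Sertoli-like cells, lower genes at 144 h against 0 h numbered 40 to 54 over all settings run (51 of 59 as reported), and the ratio of sums, 0.134 as reported, was 0.0979 with equal weight per cell, 0.127 without cluster 53, 0.138 with doublets kept, 0.140 with DESeq2 factors, 0.142 with TMM factors and with cells of at least 5000 UMIs, 0.151 without the gene with most UMIs and 0.159 under 10% mitochondrial UMIs. The 350.4 h over 144 h ratio was 1.33 with TMM factors, 1.51 under 50% mitochondrial UMIs and 1.84 with equal weight. The 556.8 h over 350.4 h ratio was 0.666 with at least 5000 UMIs and 0.840 under 50% mitochondrial UMIs. At 350.4 h higher genes numbered 6 (at least 5000 UMIs, and TMM), 4 (minimum of 100 UMIs) and 3 (under 10% mitochondrial), and lower ones 2 (TMM), 9 (equal weight) and 0 (under 50%). At 556.8 h higher genes numbered 2 (at least 5000 UMIs, and under 50%) and 1 (equal weight), and lower ones 0 (minimum of 100 UMIs, and free RNA subtracted).

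Between germ cell classes, differentiating-like over undifferentiated-like cells at 350.4 h (5.82, 3 lower) gave 2.94 and 7 lower at Leiden resolution 1, 1.76 and 6 lower with at least 5000 UMIs, 2.93 and 7 lower with doublets kept, 7.13 and 1 lower with free RNA subtracted, 0 lower with a minimum of 100 UMIs, 3.59 with equal weight, 4.46 without the gene with most UMIs, 4.75 with DESeq2 factors and 2.43 under 10% mitochondrial UMIs. At 144 h this ratio turned to 0.990 under 10% mitochondrial UMIs. Early-meiotic-like over differentiating-like cells at 763.2 h (0.6001, 5 higher, 16 lower) gave 0.237 and 29 lower at resolution 1, 1.40, 8 higher and 1 lower with at least 5000 UMIs (1.13 at 144 h and 1.17 at 556.8 h), 3 higher and 6 lower with a minimum of 100 UMIs, 0.674 with equal weight, 0.711 without the gene with most UMIs, 0.561 with DESeq2 factors, 0.657 with TMM factors, 0.399 under 10% and 0.718 under 50% mitochondrial UMIs. Pachytene-like over early-meiotic-like cells at 763.2 h (0.143, 2 higher, 21 lower) gave 0.226 at resolution 1, 0.113 with at least 5000 UMIs, 0.119 with doublets kept, 0.224 with equal weight, 0.0954 with free RNA subtracted, 0.243 and 6 higher with DESeq2 factors, 0.345 and 8 higher with TMM factors, 0.109 under 50% mitochondrial UMIs, 1 higher and 6 lower with a minimum of 100 UMIs and 32 lower with no minimum. Round-spermatid-like over pachytene-like cells at 763.2 h (5.30, 8 higher, 7 lower) gave 7.06 at resolution 1, 5.89 with at least 5000 UMIs, 4.87 and 17 higher with doublets kept, 2.65 and 4 lower with equal weight, 7.80 with free RNA subtracted, 8.73 and 13 higher with DESeq2 factors, 7.74 with TMM factors, 4.93 under 50% and 14 higher under 10% mitochondrial UMIs, and 4 higher and 3 lower with a minimum of 100 UMIs. Elongating-spermatid-like over round-spermatid-like cells at 763.2 h (0.229, 1 higher, 7 lower) gave 0.141 and 3 higher with at least 5000 UMIs, 0.320 and 0 higher with equal weight, 0.173 with free RNA subtracted, 0.714, 9 higher and 1 lower with DESeq2 factors, 0.434, 5 higher and 3 lower with TMM factors, 12 lower with doublets kept and under 10% mitochondrial UMIs, and 0 higher and 4 lower with a minimum of 100 UMIs. At 556.8 h it turned to 1.71 with DESeq2 and 1.67 with TMM factors.

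TMM factors moved every log2 ratio of a comparison alike, by -0.58 to 1.39 over the germ cell steps, and by 0.09 at 144 h over 0 h in Sertoli-like cells.

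In 0 h Sertoli-like cells the ratio of 3 or more over 0 replication UMIs (2.28) was 3.19 in cells of at least 5000 UMIs, 2.39 with doublets kept, 2.53 with free RNA subtracted, 2.11 thinned to 5000 UMIs and 0.855 without thinning. At 144 h it was 0.7499 under 50% mitochondrial UMIs, against 1.12. Other scalings and weights were not run for it, nor was 556.8 h over 350.4 h under 10% mitochondrial UMIs, which left too few cells. The cause of these differences was not tested.

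No paired analysis was possible because each time had 1 library. Intervals cover counting error only, genes with few UMIs have wide ones, and the shallow 350.4 h library limits its Sertoli-like values.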
